A study of Cardamine hirsuta with 12 samples.

Results

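Anti-GFP immunoprecipitation from *Cardamine hirsuta* shoots enriched many of the same chromatin intervals whether or not the plants carried a GFP-type tag. The summit of a peak is the base that the peak caller reports as its top. In a subset of the shared intervals, the reproducible peak lists of the tagged and the untagged plants placed the summit at different positions. These narrow shared regions with displaced summits are described here. A region was counted when it was a reproducible peak of the tagged plants on chromosomes Chr1 to Chr8, was no wider than 2000 bp, shared at least 1 bp with a reproducible peak of the untagged plants, and had its summit more than 250 bp from every untagged summit. Its midpoint also had to lie outside 8 stretches in the middle of the chromosomes where peaks are dense. In all, 565 of the 15299 reproducible tagged peaks met these conditions. The regions were chosen by the summit positions of the 2 reproducible lists, so the count and the distances between list summits are given as a description without a test. The same holds for the positions in single libraries, because the lists were made from those libraries.

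The study addressed where the transcription factor ChCUC1 sits on chromatin. The tagged plants were *C. hirsuta* of the Oxford (Ox) strain carrying ChCUC1 fused to the fluorescent protein Venus (ChCUC1:V), a name the study uses for a genomic fusion under the upstream sequence of the gene itself, and the untagged plants were wild-type Ox. Both genotypes were grown on soil in short days and harvested 14 days after germination, and for each replicate about 20 g of shoots, with roots and mature leaves taken off, was fixed for 20 min at 4 °C in 1% formaldehyde. Each genotype had 3 immunoprecipitation (IP) libraries made with the anti-GFP antibody ab290 and 3 input libraries. The material was whole shoot tissue, so enrichment is an average over cells with and without the tagged protein, and neither the number of transgenic lines nor the pooling of plants is given in the labels.

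ChCUC1 (CUP-SHAPED COTYLEDON 1) belongs to the NAC family of plant transcription factors and is known for its action at the boundaries between organs and between the leaflets of divided leaves. In a ChIP-seq peak the summit is the base reported as the top of the peak. Around a site held by a protein it usually lies close to that site. An untagged plant has no Venus for the antibody to bind, so its peaks mark chromatin that is recovered without the tagged protein. A tagged summit that stands away from the untagged summit of the same interval is therefore a position at which the peak lists of the genotypes differ although the interval itself is shared.

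The 6 single IP libraries had peak lists called at a relaxed p of 0.01, with 21353 to 48631 peaks each and median widths from 338 to 1060 bp. No read counts were used, so the depth behind each peak is unknown. ChCUC1:V replicates 1 and 2 and Ox replicates 2 and 3 carry the same sequencing run number in their names, whereas ChCUC1:V replicate 3 and Ox replicate 1 each carry another. No pair of libraries had more than 1 peak with identical coordinates.

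Displacement was the less frequent arrangement among narrow shared regions. Of the 2835 narrow regions shared between the lists outside the dense stretches, 565 had displaced summits (19.9%, Wilson 95% interval 18.5% to 21.4%) and 2270 had coinciding summits, that is, an untagged summit at 250 bp or less. Over all 9094 tagged peaks that met an untagged peak anywhere, of any width, the share with displaced summits was 30.4%. The regions were spread over all chromosomes, with 60 on Chr6 and 92 on Chr4 as the extremes. The displaced share of narrow regions ran from 17.9% on Chr6 (interval 14.1% to 22.3%) to 22.9% on Chr4 (19.0% to 27.2%), and these intervals overlapped. All such intervals cover counting error over regions only.

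The untagged summit lay to either side about equally often. It had the higher coordinate in 279 regions (49.4%, interval 45.3% to 53.5%) and the lower in 286. The distance between the list summits had a median of 631 bp, quartiles of 393 and 1000 bp and a range of 251 to 8930 bp. In 543 of the 565 regions the nearest untagged summit belonged to an untagged peak that overlapped the region. In the others it belonged to an untagged peak that did not. In 207 regions it was at most 500 bp, in 217 more than 500 and at most 1000 bp, in 89 more than 1000 and at most 2000 bp, and in 52 more than 2000 bp. A distance above 2000 bp is possible only because the untagged summit then lies outside the narrow tagged peak.

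**Figure D1:**
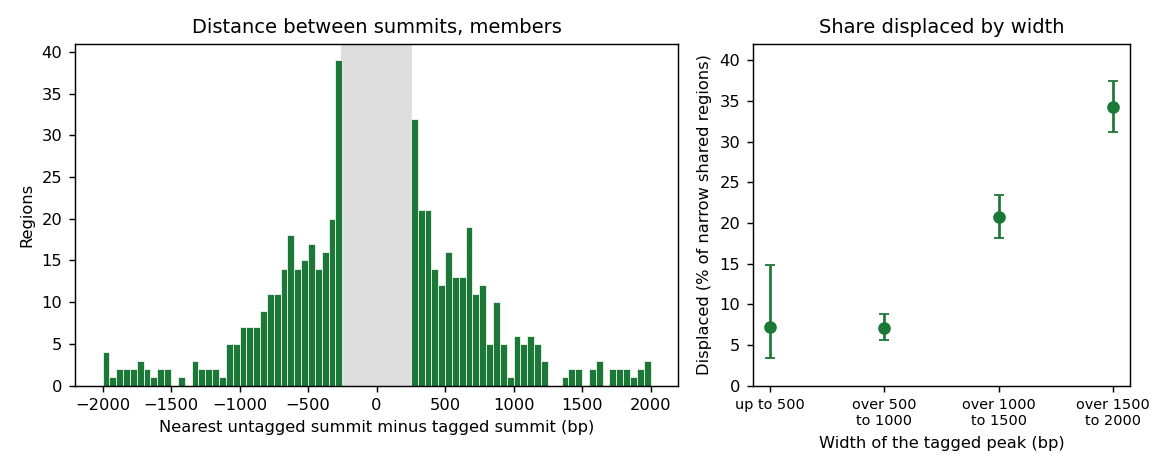
Left, number of regions with displaced summits by the distance in bp from the tagged summit to the nearest untagged summit, in bins of 50 bp; the grey band holds the distances up to 250 bp that the definition leaves out, and the 52 regions beyond 2000 bp are not drawn. Right, share of narrow shared regions with displaced summits by width of the tagged peak, with Wilson 95% intervals (counting error only): the share is 7.23% and 7.06% in the narrower classes, 20.7% over 1000 and up to 1500 bp and 34.3% over 1500 and up to 2000 bp.

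At the border of the definition, 3 regions on either side show how close to the limit the classes come. The member of lowest distance with the highest fold, Chr6:7779570-7780898, had its summits 251 bp apart and a tagged fold of 2.04, where fold is the ratio of IP to pooled control at the summit as MACS2 computes it. Its neighbours in order were Chr3:2532816-2534515, also at 251 bp with a fold of 2.03, and Chr6:7629457-7630274, at 252 bp with a fold of 1.96. Just short of the limit, the coinciding regions Chr8:8595820-8597735 and Chr6:12880040-12880867 had their summits 250 bp apart, with folds of 2.63 and 1.84, and Chr6:6964911-6966591 had them 249 bp apart, with a fold of 3.22.

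At the median, the outlines of the peaks matched closely even though the summits did not. The untagged peak covered a median of 95.2% of the tagged peak, and the starts of the peaks were a median of 80 bp apart and the ends 86 bp. In coinciding regions the medians were 92.1%, 66 bp and 67 bp. The upper quartile was 303 bp for starts and 333 bp for ends, against 145 and 151 bp in coinciding regions. Outlines thus differed more in part of the displaced regions. A long untagged peak can cover a tagged peak without sharing its outline. In 413 regions (73.1%) each summit lay inside the other peak, so that the lists shared an interval and placed its summit at different positions within it. In 112 regions (19.8%) the untagged summit fell outside the tagged peak while the tagged summit stayed inside the untagged one, in 32 the arrangement was the other way round, and in 8 neither summit was inside the other peak. All but 8 regions met a single untagged peak, and those 8 met 2.

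Displaced regions were wide for narrow regions. The tagged peak had a median width of 1540 bp against 1105 bp in coinciding regions, and the untagged peak 1618 bp against 1012 bp. The displaced share rose from 68 of 963 regions over 500 and up to 1000 bp wide (7.06%) to 305 of 890 regions over 1500 and up to 2000 bp wide (34.3%). A wider peak leaves more room for a distance above 250 bp, and how much of the displaced share follows from width was not tested. Summits also sat further from the middle of their peaks, at a median of 19.3% of the width in the tagged list and 26.1% in the untagged list, against 12.5% and 16.3% in coinciding regions.

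The larger distances went together with long untagged peaks, and the part of peak length in these distances was not tested. The untagged peak was wider than 2000 bp in 158 displaced regions (28.0%) and in 136 coinciding regions (5.99%). In 131 displaced regions (23.2%) the same untagged peak was also met by another tagged peak, compared with 73 coinciding regions (3.22%). In 70 displaced regions the summit of the overlapping untagged peak lay within 250 bp of the summit of another tagged peak that met it. Among the 52 regions with summits more than 2000 bp apart the untagged peak had a median width of 4590 bp. The most distant of all, Chr3:17592567-17593925 at 8930 bp and Chr3:17589795-17591782 at 7464 bp, met the same untagged peak of 12156 bp, and Chr3:23457845-23459662 at 6623 bp met an untagged peak of 10609 bp. For these regions the nearest untagged summit says little about where Ox enrichment was highest inside the tagged interval. At the most distant region the Ox libraries had their own summits 47, 25 and 70 bp from the tagged-list summit, close to ChCUC1:V replicates 1 and 3 at 81 and 51 bp and nearer than ChCUC1:V replicate 2 at 644 bp.

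Enrichment was of ordinary height. The tagged fold had a median of 2.15 and ran from 1.30 to 3.83, with a median of 2.21 in coinciding regions, and the median −log10 p was 22.9 against 25.6. Within the untagged list the median fold was 2.37 against 2.38. With all narrow shared regions split into 4 classes of about equal size by tagged fold, from the lowest to the highest, the displaced share was 28.1%, 17.6%, 17.5% and 16.5%. Among tagged peaks wider than 1500 bp the same classes gave 46.8%, 36.4%, 33.2% and 25.6%, so that the displaced share fell with fold in this width class too. The other width classes were not split. These are descriptions of the values on which the lists themselves were ranked.

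Nearly every region had a peak in every single library, as its place in both reproducible lists makes likely. Of the 565 regions, 531 (94.0%) were met by a peak in all 6 libraries, against 75.1% of all reproducible tagged peaks and 86.7% of the coinciding regions. The share met was 99.1%, 98.8% and 99.1% in ChCUC1:V replicates 1 to 3 and 99.3%, 95.9% and 99.3% in Ox replicates 1 to 3. The ranges of the genotypes overlapped, with means of 99.0% ± 0.204 and 98.2% ± 1.94 (SD, n = 3 each). With 21353 peaks taken from each library the ChCUC1:V mean was 6.55 percentage points above the Ox mean, and with at least 50% of the region covered it was 21.8 points above, against 0.83 points as first counted.

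Each library was then represented at a region by the summit of its overlapping peak with the highest −log10 p. The tagged summit was met more often in the ChCUC1:V libraries than in the Ox libraries, though not rarely in the latter. Library summits lay within 250 bp of the tagged-list summit in 66.4%, 76.3% and 68.2% of regions in ChCUC1:V replicates 1 to 3 and in 38.0%, 41.7% and 33.7% in Ox replicates 1 to 3. The means were 70.3% ± 5.29 and 37.8% ± 4.01 (SD, n = 3 each), and no Ox library reached the lowest ChCUC1:V library. The choice of regions favours this order, because the lists were made from these libraries. In coinciding regions the same shares were 87.0%, 90.7% and 83.9% for ChCUC1:V and 87.3%, 79.3% and 84.3% for Ox, with overlapping ranges.

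The Ox libraries were in turn more often at the untagged summit than the ChCUC1:V libraries were. Ox replicates 1 to 3 had their summit within 250 bp of the nearest untagged-list summit in 53.7%, 42.1% and 51.5% of regions, and ChCUC1:V replicates 1 to 3 in 25.5%, 22.9% and 20.9%. The means were 49.1% ± 6.17 and 23.1% ± 2.33 (SD, n = 3 each). These shares count regions whose untagged summit lies outside the tagged peak that a library peak had to overlap, so that it could hardly be met. In the 413 regions with each summit inside the other peak, Ox replicates 1 to 3 were at the untagged summit in 63.8%, 51.4% and 63.1% and at the tagged summit in 38.3%, 39.1% and 29.6%. ChCUC1:V replicates 1 to 3 were at the tagged summit there in 63.2%, 76.9% and 69.7% and at the untagged summit in 32.4%, 28.6% and 24.0%. In these regions each library was thus more often at the summit of its own list, which the choice of regions favours. Over all displaced regions with a peak of the library, between 9.32% and 22.3% of a library's summits lay at neither list summit.

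**Figure D2:**
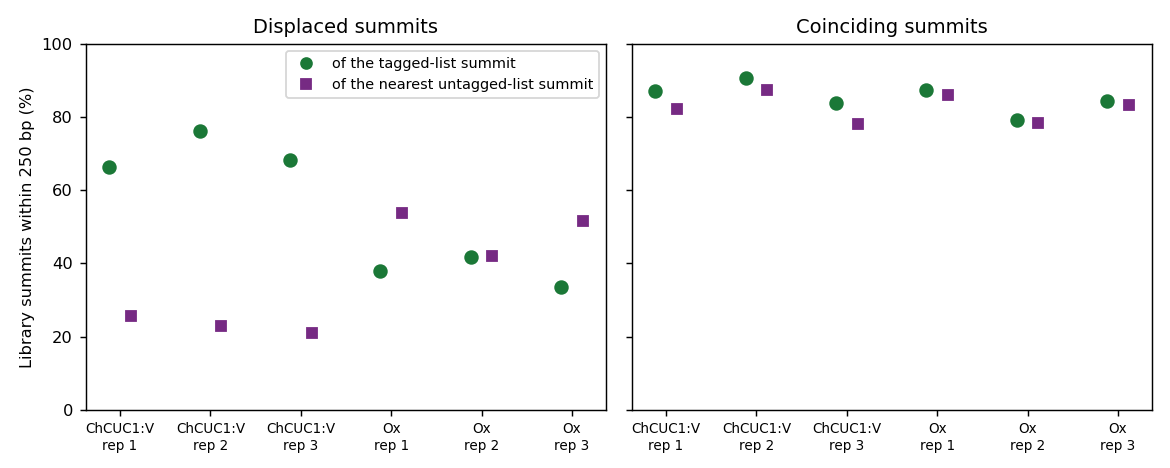
Share of regions, in percent of those with a peak of the library, whose library summit lies within 250 bp of the tagged-list summit (circles) or of the nearest untagged-list summit (squares), for each of the 6 IP libraries; each symbol is 1 library. In displaced regions (left) the ChCUC1:V libraries are at the tagged summit in 66.4% to 76.3% of regions and the Ox libraries in 33.7% to 41.7%, whereas in coinciding regions (right) the genotypes overlap.

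Measured as a distance, library summits had a median of 144.5, 82 and 155.5 bp to the tagged-list summit in ChCUC1:V replicates 1 to 3 and 349, 316 and 375 bp in Ox replicates 1 to 3. The means were 127 ± 39.6 bp and 347 ± 29.6 bp (SD, n = 3 each). The regions were chosen by list summits made from these libraries, which favours this order, so the difference is a description only. To the nearest untagged-list summit the medians were 544.5, 506.5 and 472 bp in ChCUC1:V and 201, 454 and 186 bp in Ox. Ox replicate 2 stood apart from the other Ox libraries here. Its peaks were also the narrowest at these regions, with a median width of 524 bp against 832.5 to 1518 bp in the other 5 libraries, and it placed more than 1 peak in 47.1% of regions. The part of these properties in its summit positions was not tested.

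Libraries of a genotype often did not share a summit position with each other. In the 531 regions with a peak in all 6 libraries, the 3 ChCUC1:V summits spanned a median of 402 bp and the 3 Ox summits 636 bp, against 213 and 250.5 bp in coinciding regions. All 3 ChCUC1:V libraries were within 250 bp of the tagged-list summit in 189 regions (35.6%), and all 3 Ox libraries were within 250 bp of the nearest untagged-list summit in 79 (14.9%). In the 1968 coinciding regions with a peak in all 6 libraries these counts were 1327 (67.4%) and 1090 (55.4%). The median ChCUC1:V and the median Ox summit were more than 250 bp apart in 261 regions (49.2%), so that by the middle library of each genotype about as many displaced regions met the 250 bp limit as not. In coinciding regions this was so in 247 of 1968 (12.6%).

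Single libraries were also compared in pairs, in regions that the list summits of these same libraries had chosen, so the shares are a description. Summits of ChCUC1:V libraries lay within 250 bp of each other in 52.4% of displaced regions for replicates 1 and 2, 44.2% for replicates 1 and 3 and 56.8% for replicates 2 and 3. For Ox these shares were 37.8%, 40.4% and 42.2% in the same order. Across genotypes the 9 pairs ran from 37.2% to 44.5%, with a mean of 41.8%. The mean of the Ox pairs was 40.1%, and the range of the ChCUC1:V pairs (mean 51.2%) touched that across genotypes through the pair of replicates 1 and 3. The mean over the pairs within genotypes exceeded that across genotypes by 3.80 percentage points. It fell to −0.28 points without ChCUC1:V replicate 2 and to −0.12 points without ChCUC1:V replicate 3, where a single ChCUC1:V pair is averaged with the 3 Ox pairs.

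**Figure D3:**
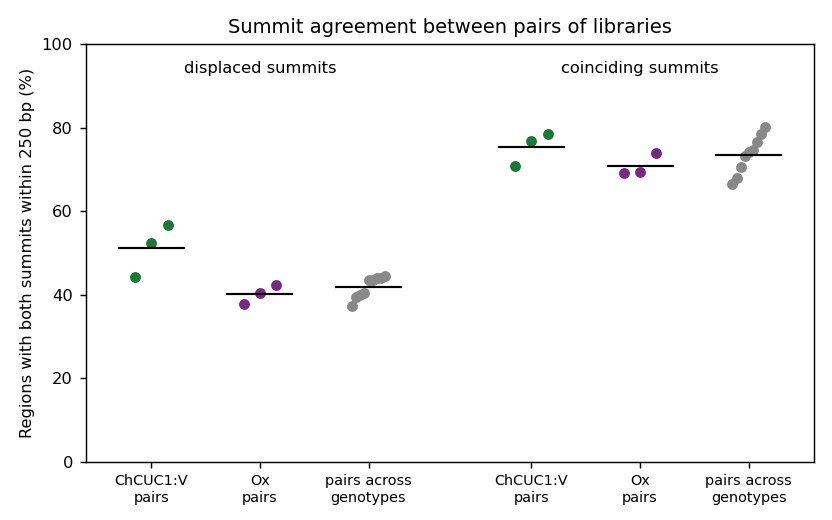
Share of regions, in percent of those with a peak in both libraries, in which the summits of a pair of libraries lie within 250 bp of each other; each point is 1 pair and the line is the mean of the pairs of a kind. In displaced regions the means are 51.2% for ChCUC1:V pairs, 40.1% for Ox pairs and 41.8% across genotypes, and in coinciding regions 75.3%, 70.8% and 73.5%.

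Pair shares were also set side by side at a given width, although the definition splits these classes by summits from the same libraries and lower shares in displaced regions follow from it in part. For tagged peaks over 1500 and up to 2000 bp wide the means were 45.2%, 36.1% and 39.1% for ChCUC1:V pairs, Ox pairs and pairs across genotypes in displaced regions, and 62.1%, 53.2% and 58.1% in coinciding regions. Over 1000 and up to 1500 bp they were 56.3%, 44.0% and 42.9% in displaced regions, and 72.6%, 66.9% and 70.8% in coinciding regions. The lower values were seen in pairs of both genotypes and in pairs across them.

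A strict count asks whether all 3 ChCUC1:V summits lie on one side of all 3 Ox summits. This was so in 78 of the 531 displaced regions with a peak in all 6 libraries (14.7%, interval 11.9% to 18.0%). The background share was 10.9% over all shared tagged peaks with a peak in all 6 libraries and 9.04% (178 of 1968) over the coinciding regions. In 69 of the 78 the ChCUC1:V summits were on the side the lists gave, which the choice of regions favours. In 13 of the 78 the gap between the genotypes was more than 250 bp. No background share was computed for these 2 counts. The lists that chose the regions were made from these libraries, so nothing is read from the differences between the shares. In the other displaced regions the genotypes overlapped. With 1 library left out the share was 20.3% to 28.8%, and within the run that held 2 libraries of each genotype it was 35.5%. Fewer libraries separate more easily by construction. No background share was computed with fewer libraries, so these values cannot be set against 10.9% and 9.04%.

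Libraries can hold several peaks in a region, so the lists were also compared with every library summit there. An Ox library had a summit within 250 bp of the tagged-list summit in 501 of the 565 regions (88.7%), in 55 of them in all 3 Ox libraries. A ChCUC1:V library had a summit within 250 bp of the nearest untagged-list summit in 333 regions (58.9%), a share lowered by untagged summits outside the tagged peak, which the library peaks had to overlap. In 295 regions (52.2%) both list summits were met by a summit of the other genotype, and in 26 regions (4.60%) neither was. The word displaced is used here for the reproducible lists only. In the 443 regions whose nearest untagged-list summit lay inside the tagged peak, 47 (10.6%) had no Ox library summit within 250 bp of the tagged-list summit and 123 (27.8%) had no ChCUC1:V library summit within 250 bp of the untagged one. Counting any peak of any of 3 libraries makes a match easier. Apart from the regions without an Ox summit, taken up next, these shares were not computed for other shared regions, so they have no background here.

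Only 64 regions had no Ox library summit within 250 bp of the tagged summit, and in 17 of these all 3 ChCUC1:V libraries had one. These are 11.3% and 3.01% of the displaced regions, against 4.46% and 1.07% of all 9094 shared tagged peaks and 0.176% and 0.0441% of the coinciding regions. The definition used the same summits, so nothing is read from the difference. The 17 regions had a median fold of 1.97, and the 3 of highest fold were picked out after their values were seen. At Chr1:19821854-19823553, with a fold of 2.52, the nearest library summits were 42, 54 and 230 bp from the tagged-list summit in ChCUC1:V and 271, 387 and 548 bp in Ox. At Chr1:15151620-15153422, with a fold of 2.37, they were 135, 226 and 132 bp in ChCUC1:V and 299, 316 and 398 bp in Ox. That the Ox summits were the more distant was fixed by the choice of these regions, and the closest Ox summit was only slightly beyond 250 bp in both. At Chr3:19710282-19711412, with a fold of 2.18, they were 18, 189 and 30 bp in ChCUC1:V and 311, 672 and 688 bp in Ox.

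The most enriched displaced regions had moderate support in the libraries. The highest fold was at Chr3:20017154-20018893, with the tagged summit at 20018410, the untagged summit 833 bp to its left at 20017577, a tagged fold of 3.83 and an untagged fold of 3.32. ChCUC1:V replicates 1 to 3 had summits 4, 36 and 292 bp to the left of the tagged-list summit, whereas Ox replicates 1 and 3 lay 669 and 372 bp to the left and Ox replicate 2 lay 248 bp to the right. The ChCUC1:V libraries were close together and the Ox libraries lay on both sides of them. Their folds were 4.52, 3.81 and 3.42 in ChCUC1:V and 3.08, 4.43 and 3.08 in Ox, so that the genotypes overlapped in fold too.

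At Chr6:2932576-2934287, fold 3.55, the untagged summit lay 1002 bp to the left of the tagged one. The ChCUC1:V summits were 61, 88 and 601 bp to the left and the Ox summits 967, 1033 and 230 bp to the left, so that 1 library of each genotype broke an otherwise clear separation. A like pattern held at Chr5:5036587-5038272, fold 3.51, with the list summits 916 bp apart. There ChCUC1:V replicates 2 and 3 were 8 and 48 bp from the tagged summit and Ox replicates 1 and 3 were 871 and 935 bp from it, but ChCUC1:V replicate 1 was 823 bp and Ox replicate 2 was 211 bp away.

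The other regions among the 5 of highest fold were less clear. At Chr2:10730198-10731502, fold 3.54, the ChCUC1:V summits lay 19, 37 and 105 bp from the tagged-list summit, and the Ox summits 49, 169 and 368 bp from it. At Chr8:641759-643724, fold 3.48, the list summits were 258 bp apart, and 1 library of each genotype, ChCUC1:V replicate 1 and Ox replicate 2, had its summit 907 and 1053 bp away near the other end of the region. In all 5 regions the summits of the genotypes overlapped.

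**Figure D4:**
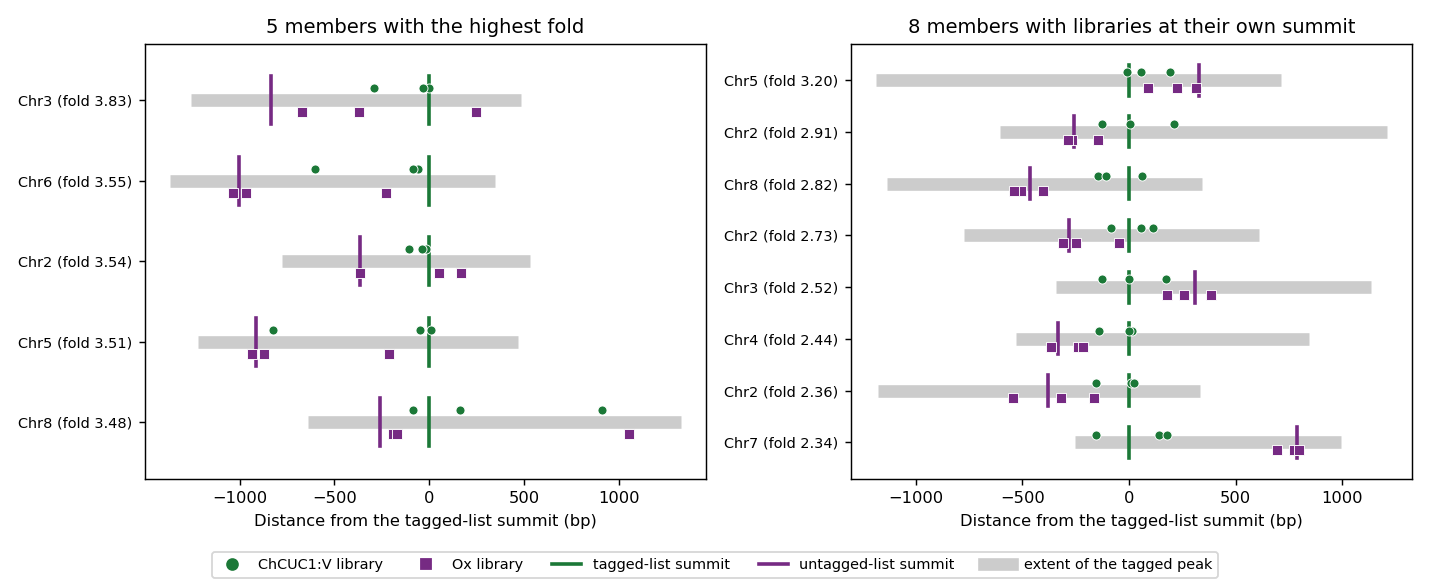
Summits of the 6 IP libraries in bp from the tagged-list summit, for the 5 displaced regions with the highest tagged fold (left) and for the 8 of highest fold in which all 6 libraries are within 250 bp of the summit of their own list (right); circles are ChCUC1:V libraries, squares Ox libraries, vertical bars the list summits and grey bands the tagged peak. All 5 regions on the left have overlapping genotypes, while 6 of the 8 on the right do not.

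A small set of regions had every library at the summit of its own list. Among the 523 displaced regions with 1 untagged peak and a peak in all 6 libraries, 31 (5.93%, interval 4.21% to 8.29%) had all 3 ChCUC1:V summits within 250 bp of the tagged-list summit and all 3 Ox summits within 250 bp of the untagged one. Over displaced shared peaks of any width and place the share was 2.75% (66 of 2397). The summits of the genotypes did not overlap in 24 of the 31, a separation that the choice of these regions largely fixes.

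Of the 8 with the highest fold among these 31, 6 kept the genotypes apart. At Chr8:5185444-5186921, fold 2.82, the untagged summit was 464 bp to the left of the tagged summit at 5186579. ChCUC1:V summits were 148 bp to the left, 59 bp to the right and 106 bp to the left of it, and Ox summits 505, 402 and 540 bp to the left. Every Ox library lay well to the left of every ChCUC1:V library. At Chr4:3633233-3634610, fold 2.44, the ChCUC1:V summits were 13, 139 and 1 bp from the tagged-list summit, and the Ox summits 240, 365 and 218 bp to its left.

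The clearest case of the 8 was Chr7:12534294-12535541, where the list summits at 12534547 and 12535333 were 786 bp apart in a tagged peak of 1248 bp. ChCUC1:V replicate 1 had its summit 154 bp to the left of the tagged-list summit and replicates 2 and 3 had theirs 141 and 178 bp to the right, whereas the Ox summits lay 693, 775 and 796 bp to the right. The tagged and untagged folds were 2.34 and 2.90, and those of the single libraries were 2.72, 2.14 and 2.33 in ChCUC1:V and 2.39, 3.86 and 2.63 in Ox. Summit positions were thus separate by more than 500 bp while the folds overlapped.

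In Chr2:12700782-12702599, Chr3:13204955-13206431 and Chr2:11422779-11424292, with folds of 2.91, 2.52 and 2.36, the genotypes were also apart but by less. The list summits there were 257, 310 and 379 bp apart. In the first, the Ox summit nearest to the tagged one was 144 bp to its left and the ChCUC1:V summit nearest to it was 126 bp to its left, so that the gap was far smaller than the distance between lists. The gap was smaller still in the others. In the second, ChCUC1:V replicate 3 was 174 bp and Ox replicate 3 179 bp to the right of the tagged-list summit. In the third, ChCUC1:V replicate 3 was 155 bp and Ox replicate 1 166 bp to its left. Chr5:6114146-6116042 (fold 3.20, list summits 327 bp apart) and Chr2:10863911-10865297 (fold 2.73, 282 bp apart) met the criterion on distance and still had overlapping genotypes.

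The largest distances among the 31 regions were looked up after the values were seen. All 31 were chosen to have every library within 250 bp of its own list's summit, which largely fixes the grouping and the separation. At Chr7:11133519-11135283, fold 2.28, the list summits were 966 bp apart. ChCUC1:V summits lay 17, 40 and 109 bp to the right of the tagged-list summit and Ox summits 721, 987 and 883 bp to its left. A grouping by genotype was also seen at Chr2:10784460-10785967, fold 1.97. ChCUC1:V summits there were 226, 121 and 33 bp to the right and Ox summits 533, 519 and 519 bp to the left. At Chr1:15024275-15025648, fold 2.13, ChCUC1:V summits were 27, 21 and 88 bp from the tagged-list summit and Ox summits 541, 659 and 513 bp to its right.

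All 8 regions that met 2 untagged peaks had a peak in all 6 libraries, and in 2 of the 8 the genotypes did not overlap. The interval of this share, 7.15% to 59.1%, holds the background of 10.9% over all shared tagged peaks. It also holds the 9.04% of coinciding regions. Of the 3 such regions with the highest fold, Chr6:7261608-7263089 (fold 2.51, list summits 255 bp apart) had separate genotypes, with ChCUC1:V summits 124, 242 and 58 bp to the right of the tagged-list summit and Ox summits 431, 152 and 290 bp to its left. Chr7:3298606-3300582 (fold 2.60, 335 bp) and Chr3:17470984-17472885 (fold 2.43, 310 bp) had overlapping ones. A separation of libraries was also not limited to displaced regions, since the coinciding region Chr8:8595820-8597735 at 250 bp had ChCUC1:V summits 30, 60 and 49 bp from the tagged-list summit and Ox summits 250, 492 and 217 bp to its left.

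The position of Ox library summits depended on how far the lists were apart. Where the list summits were at most 500 bp apart, Ox replicates 1 to 3 were within 250 bp of the untagged-list summit in 70.9%, 58.4% and 64.6% of regions and of the tagged-list summit in 37.9%, 39.6% and 34.5%. These windows overlap at such distances, so that a library summit can be counted in both. Where the list summits were more than 2000 bp apart, the Ox libraries were near the untagged-list summit in 9.80%, 0% and 1.92% of regions and near the tagged-list summit in 41.2%, 44.9% and 40.4%. The zero is 0 of 49 regions, and the library peaks counted here had to overlap the tagged region, which the distant untagged summit did not. ChCUC1:V libraries were near the tagged-list summit in 80.8%, 76.9% and 74.5% of these regions.

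The share of regions with separate genotypes followed no order with distance. It was 33 of 200 (16.5%) at up to 500 bp, 25 of 206 (12.1%) over 500 and up to 1000 bp, 10 of 77 (13.0%) over 1000 and up to 2000 bp and 10 of 48 (20.8%, interval 11.7% to 34.3%) beyond, with overlapping intervals. Regions with each summit inside the other peak gave 58 of 404 (14.4%). Background shares were 10.9% over all shared tagged peaks with a peak in all 6 libraries and 9.04% over the coinciding regions. The lists that chose the regions were made from these libraries, so nothing is read from the differences.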

How the data were processed

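Peak lists of 6 anti-GFP IP libraries were used, 3 of ChCUC1:V and 3 of Ox; groups came from sample titles, since the genotype label is the Oxford strain throughout. Per the labels the authors' tools were Bowtie, MACS2 and bedtools; versions and genome build are not given in the sources used here. By their names, the deposited single-library lists were called on reads without duplicates, against pooled controls and at p 0.01. The deposited score of the reproducible lists is a scaled irreproducible discovery rate (IDR), with 540 for an IDR of 0.05. The deposited fold is a linear ratio of IP over control at the summit, and the −log10 p is the authors' value per peak; fold and −log10 p were compared within a list. The reproducible lists are named case and control only. Case was taken as ChCUC1:V from the series title and because ChCUC1 peaks tabulated by the study carry case-list coordinates.

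Summit positions, overlaps (at least 1 bp) and shares were computed with Python 3.11.15, pandas 2.3.3, NumPy 2.4.6 and SciPy 1.17.1, drawn with matplotlib 3.10.9, and the overlap code was tested on simulated data. The dense stretches left out were Chr1 16 to 19, Chr2 6 to 9.5, Chr3 13.5 to 17, Chr4 8 to 10, Chr5 9.5 to 13.5, Chr6 9.5 to 12.5, Chr7 6.5 to 10.5 and Chr8 9.5 to 10.5 Mb. Coordinates count from 1. Wilson 95% intervals cover counting error only. Values over libraries are mean ± SD of 3, which may be technical spread, since nothing in the labels says the replicates were grown separately. The regions and rules were chosen with earlier results of these data known. Regions named were the 5 of highest fold, the 8 of highest fold with all 6 libraries at their own list's summit, the 3 with the largest distance, the 3 on each side of 250 bp and the 3 of highest fold that met 2 untagged peaks; others are said to be chosen after their values were seen. Alternatives changed the summit distance, width, overlap, IDR, stretches, choice of library peak, number of peaks, run and replicates. Genes and sequences at the summits were not analysed here.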

Additional observations from a re-analysis of the deposited data

How the results depend on the processing

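The number of displaced regions follows the definition. Against 565, it was 1279 with a summit distance of 100 bp, 358 with 500 bp, 74 with widths up to 1000 bp, 1483 with no width limit, 184 at an IDR of 0.01 in both lists, 957 with the dense stretches kept, and 64 when no summit of a single Ox library was allowed within 250 bp either; with at least 50% of the tagged peak covered it was 521. The share of regions with separate genotypes, 14.7%, was 35.5% within 1 sequencing run and 20.3% to 28.8% with each library left out in turn. The smaller number of libraries raises it by construction, and no background share was computed with fewer libraries. The ChCUC1:V minus Ox difference in median distance to the tagged-list summit, −219 bp, was −181 bp with the library peak nearest to the midpoint and −235 to −197 bp with each library left out. The excess of pairs within over pairs across genotypes, 3.80 percentage points, ran from −0.28 to 7.39 points with each library left out, and was negative without ChCUC1:V replicate 2 (−0.28) and without ChCUC1:V replicate 3 (−0.12). Chosen after seeing the data, any peak of a library gave 3.02 points and regions wider than 1000 bp gave 3.72. The difference in regions met, 0.83 points, was 6.55 points with 21353 peaks per library, 21.8 points when at least 50% of the region had to be covered, and −0.29 to 1.39 points with each library left out, negative without Ox replicate 2 (−0.29); the cause was not tested. The other alternatives kept the direction. They left the share of regions with separate genotypes inside its Wilson interval. The other values moved by less than their spread over libraries, or over pairs for the pair shares. For the pair shares this spread, 4.17 points, is larger than the excess of 3.80 points itself, so it is a loose limit. The excess was 2.50 points when summits had to lie within 100 bp of each other and 1.07 points within 500 bp. No paired analysis was possible because replicate numbers name libraries only and the results come from no test. Depth is unknown.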
